A study of Mus musculus with 39 samples.

Results

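The STAT family of transcription factors was followed through loss of 1 of its genes, *Stat3*, in the mouse epiblast. The members were the 6 rows of the count tables whose gene symbol was *Stat2*, *Stat3*, *Stat4*, *Stat5a*, *Stat5b* or *Stat6*, of 47643 genes listed, and each was found once in each table. Bulk RNA-seq had been read in 35 epiblast libraries, each from 1 hand-dissected epiblast, and in 4 libraries of EpiSCs, self-renewing stem cell lines derived from postimplantation epiblasts. WT epiblasts numbered 2, 9 and 9 at the embryonic stages E5.5, E6.5 and E7.5, and *Stat3* null epiblasts numbered 4, 8 and 3. The EpiSCs comprised null lines 2 and 6 and WT lines 8 and 13. The question addressed was whether any other STAT gene is raised where *Stat3* is missing, and how the family is deployed from implantation to gastrulation.

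All embryos came from crosses between *Stat3* heterozygous mice on the outbred CD1 background, and null epiblasts carry 2 copies of a germline null allele, in which a neomycin resistance cassette replaces exons 20, 21 and 22. Genotype was read by PCR from extraembryonic tissue. EpiSCs were kept in N2B27 medium with FGF2, Activin A and XAV939, an inhibitor of WNT signalling, on fibronectin. Each EpiSC library is 1 line, so its replicate spread is a spread between lines.

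STAT proteins wait in the cytoplasm as latent factors. Cytokines of the LIF and IL-6 family bind receptors that share the gp130 chain (*Il6st*), associated Janus kinases (JAKs) phosphorylate a tyrosine near the STAT carboxyl end, and the factors pair through their SH2 domains and move to the nucleus. STAT3 carries the LIF signal that sustains naive mouse embryonic stem cells. STAT5A and STAT5B serve growth hormone, prolactin, erythropoietin and many interleukins, STAT6 serves IL-4 and IL-13, STAT4 serves IL-12, and STAT2 acts with IRF9 downstream of type I interferon. STAT factors also raise their own inhibitors, the SOCS proteins.

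The 3 exons removed by the allele are given here because they carry the SH2 region and the regulatory tyrosine. On GRCm38 they lie on the minus strand of chromosome 11, within the coding part of *Stat3* (chr11:100885098-100939540), and they are printed 5′ to 3′ in the sense of the transcript. Exon 20 spans chr11:100893665-100893804, exon 21 spans chr11:100893074-100893286 and exon 22 spans chr11:100889886-100889928. In exon 22 the capitals mark the TAC codon of the tyrosine residue that JAKs phosphorylate.
*Stat3* exon 20: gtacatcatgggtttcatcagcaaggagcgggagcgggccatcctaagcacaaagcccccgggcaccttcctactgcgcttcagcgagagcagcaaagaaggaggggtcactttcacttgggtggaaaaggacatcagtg
*Stat3* exon 21: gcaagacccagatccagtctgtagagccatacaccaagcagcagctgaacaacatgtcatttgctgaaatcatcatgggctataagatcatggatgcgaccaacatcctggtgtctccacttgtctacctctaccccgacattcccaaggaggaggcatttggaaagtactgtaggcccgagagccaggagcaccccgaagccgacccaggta
*Stat3* exon 22: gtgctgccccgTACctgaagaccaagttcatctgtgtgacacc
Together the exons hold 396 bases, 8.77% of the 4516-base, 24-exon transcript used for the numbering, and the codons 583 to 715. The deposited counts are sums over the whole gene, so reads from the remaining exons still count towards *Stat3* in null libraries.

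The members sit in 3 places. *Stat5b* (chr11:100780731-100850724), *Stat5a* (chr11:100859351-100885169) and *Stat3* lie side by side on chromosome 11. *Stat5b* and *Stat5a* are divergent neighbours 8626 bases apart, and the 3′ ends of *Stat5a* and *Stat3* overlap on opposite strands by 72 bases. *Stat6* (chr10:127642986-127660957) and *Stat2* (chr10:128270559-128292849) lie on chromosome 10, and *Stat4* (chr1:51987148-52107189) lies on chromosome 1. *Stat5a* and *Stat5b* transcripts align over 2355 bases at 90.2% identity, so that short reads from that stretch could be exchanged between them. *Stat4* overlaps the same-strand transcript *Gm28177* over 29929 bases, which makes its low counts less certain.

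The promoters were searched for the palindromes that STAT dimers bind, TTCNNNGAA and the STAT6-type TTCNNNNGAA, over 300 bases around each RefSeq start site on GRCm38.p6 and on both strands, since each motif is its own reverse complement. Among 32851 promoters of that length the first was present in 8.3% and the second in 6.95%. Of the members, *Stat2* alone held a match, TTCCCTAGAA at 210 bases before the start of transcription, and *Stat3*, *Stat4*, *Stat5a*, *Stat5b* and *Stat6* had neither pattern in these windows. It is printed as the only member promoter with such a pattern, from chr10:128270248-128270547 on the plus strand, with the match in capitals.
*Stat2* promoter: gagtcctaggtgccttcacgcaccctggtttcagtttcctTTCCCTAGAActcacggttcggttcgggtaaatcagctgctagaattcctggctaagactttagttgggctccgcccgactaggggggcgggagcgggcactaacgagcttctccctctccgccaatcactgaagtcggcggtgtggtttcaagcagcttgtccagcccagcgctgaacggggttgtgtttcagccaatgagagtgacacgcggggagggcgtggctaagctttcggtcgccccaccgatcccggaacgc

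Depth ran from 22941210 to 79013960 counts per epiblast library and from 63445877 to 127583699 per EpiSC library. Levels are read counts scaled per 1e6 reads (CPM) after TMM scaling, and the floor set for a reading of 0, which is 3 counts, corresponds to 0.0233 to 0.13 CPM, for counting error only. Pass denotes an adjusted p under 0.05 in edgeR's quasi-likelihood test over all genes tested. At E6.5, replicates 1 to 3 of either genotype held over 40000000 counts yet fewer genes (15171 to 19380, against 20338 to 22310 in the others). *Pou5f1*, the defining pluripotency factor of the epiblast, was present in every library but E5.5 null replicate 1, where it stood at 0.673 CPM against 176 to 288 in the E5.5 WT. That library also had the highest extraembryonic ectoderm marker sum of all, 1293 CPM, an epiblast marker sum of 1334 CPM with 4 of 10 genes at 0, and 9 of 14 visceral endoderm genes at 0. It goes against its label of epiblast, and is kept under that label with values also given without it. Markers of visceral endoderm, the extraembryonic layer around the epiblast, were high at E5.5 (summed level of 14 genes 652 to 11490 CPM). E6.5 null replicate 1 held extraembryonic ectoderm markers at a summed 1051 CPM, against at most 72.2 CPM in the other E6.5 libraries. E7.5 WT replicate 3 stood apart from its group and is kept under its label. It had the lowest visceral endoderm sum and the lowest mesoderm sum, 85.8 CPM against at least 364 CPM. Its epiblast sum of 6893 CPM, against at most 3862 CPM, lay within the E6.5 WT range of 5455 to 8377 CPM. Its *Pou5f1* (608 CPM) was the highest of E7.5 WT and its *Cdx2* (0.673 CPM) the lowest.

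*Stat3* itself was read first, as the check of the genotype labels. At E5.5 the 4 null epiblasts held *Stat3* at 9.47, 15.3, 22.6 and 20.3 CPM (16.9 ± 5.84, SD, n = 4) and the WT at 51.1 and 38.6 CPM (44.8 ± 8.85, SD, n = 2). At E6.5 the null epiblasts ranged from 1.42 CPM through a median of 3.94 to 7.99 CPM (n = 8), and the WT from 5.62 through 12.5 to 28.6 CPM (n = 9). At E7.5 the 3 null epiblasts held 1.503, 1.29 and 1.24 CPM and the 9 WT between 4.69 and 24.7 CPM with a median of 11.5. The groups did not overlap at E5.5 and E7.5, and at E6.5 the 3 highest null epiblasts lay within the WT range.

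The log2 difference of null against WT was -1.41 (SE 0.36, adjusted p = 0.999) at E5.5, -1.60 (SE 0.39, adjusted p = 0.334) at E6.5 and -3.31 (SE 0.44, adjusted p = 0.00808) at E7.5. These correspond to levels 2.66-fold, 3.03-fold and 9.93-fold lower. In EpiSCs the null lines held 3.15 and 3.50 CPM against 18.2 and 22.8 CPM in the WT lines, 6.17-fold lower (log2 -2.62, SE 0.17, adjusted p = 0.00706). *Stat3* therefore passed at E7.5 and in EpiSCs and did not pass at E5.5 and E6.5. The term for a difference between the E7.5 and E6.5 deficits was -1.73 on the log2 scale (95% confidence interval -2.94 to -0.53, adjusted p = 0.163), which did not pass.

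Two-sided exact permutation tests on single members, 48 in all and not adjusted, gave *Stat3* p = 0.000987 at E6.5 and p = 0.00909 at E7.5, the latter the smallest that 3 against 9 libraries allow. At E5.5 (p = 0.133) and in EpiSCs (p = 0.333) the exact permutation values were the smallest possible, so those designs cannot reach 0.05. At E6.5 the difference was present in both depth classes, -1.37 among the libraries under 40000000 counts (exact permutation p = 0.0173) and -1.90 among those over it (exact permutation p = 0.1, the smallest possible). At E7.5 the call was lost on leaving out 1 of the 12 libraries, null replicate 2, when the log2 difference was -3.29 with adjusted p = 0.0668 in edgeR.

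When all 35 epiblast libraries were fitted with 1 genotype effect common to the 3 stages, *Stat3* was lower in null by 1.98 on the log2 scale, 3.94-fold (SE 0.30, adjusted p = 0.00205). It was 1 of 2 genes passing of 24126, a share of 0.00829%. The other, *Twist2*, named here after its values were seen, is a mesenchymal transcription factor that was at or near 0 in most libraries (0 to 0.0501 CPM in null and 0 to 3.44 CPM in WT epiblasts). None of the 5 other members passed.

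**Figure D1:**
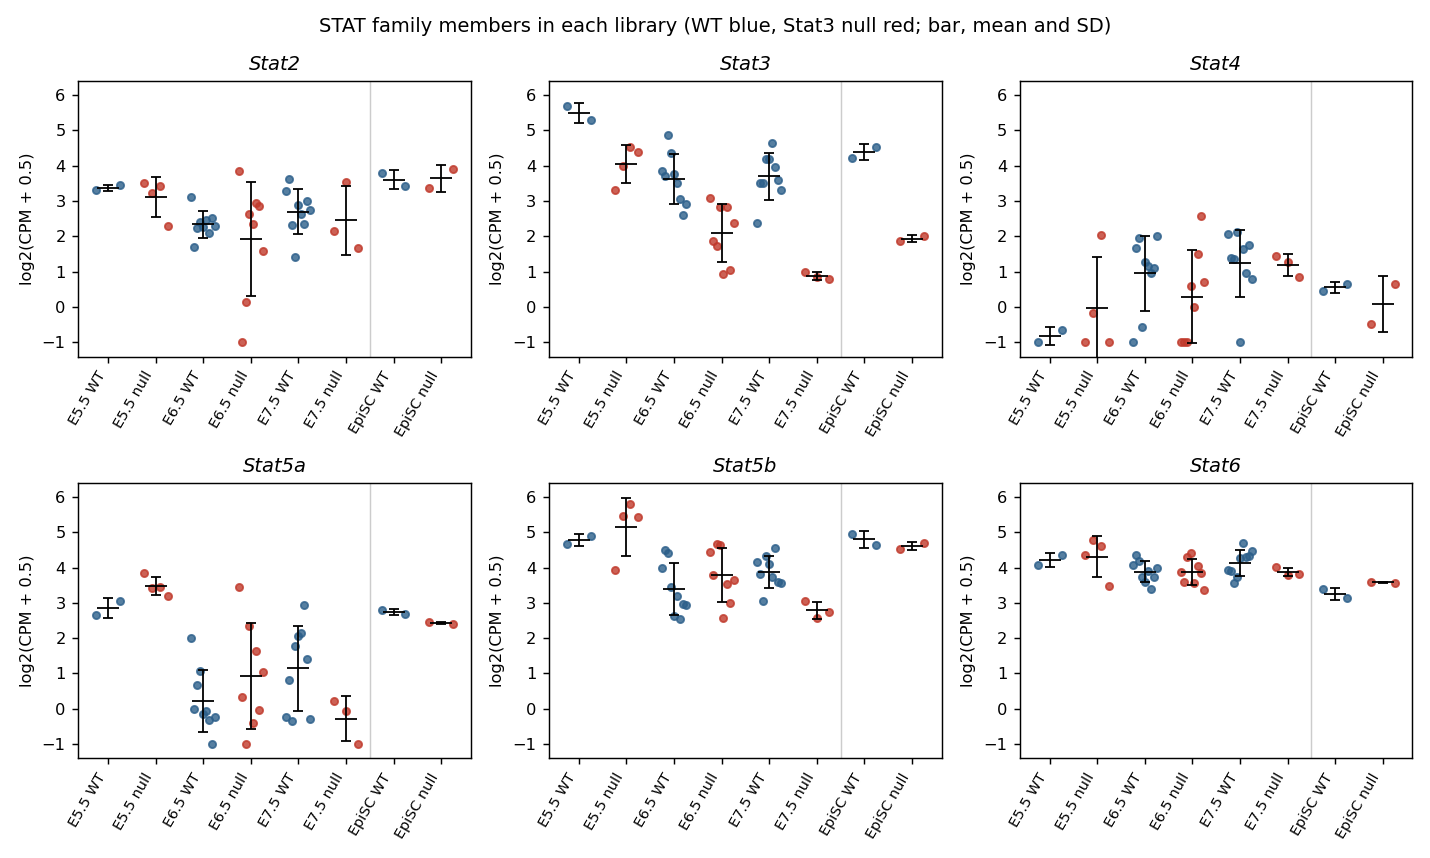
Level of each STAT member as log2(CPM + 0.5) on the vertical axis in every library, grouped by stage and genotype on the horizontal axis (WT blue, null red, points are libraries, bars are group mean and SD). *Stat3* is lower in null than in WT at each stage and in EpiSCs, *Stat6* ranges overlap between null and WT epiblasts at every stage, and *Stat5a* and *Stat4* scatter down to 0 counts.

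The share of the genome that passed in each stage sets the scale for the other members. At E5.5 0 of 18690 genes passed (0%), with 467 at an unadjusted p under 0.05, 33 passing in DESeq2 and 0 in limma voom. At E6.5 0 of 17095 passed (0%), with 1414 at an unadjusted p under 0.05, 77 passing in DESeq2 and 170 in limma voom with sample quality weights. At E7.5 416 of 19680 passed (2.11%), and in EpiSCs 27 of 20736 (0.130%). The E7.5 count was 0 without null replicate 2 and 2802 without WT replicate 3, the library that stood apart in its markers. Of the members 0 of 6 passed at E5.5, 0 of 6 at E6.5, and 1 of 6 at E7.5 and in EpiSCs, *Stat3* in both cases. No STAT member passed in the higher direction in any of these comparisons.

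*Stat5b*, the growth hormone effector, had after *Stat3* the smallest adjusted p of the members at E7.5. At E7.5 the null epiblasts held 7.79, 5.49 and 6.19 CPM (6.49 ± 1.18, SD, n = 3) and the 9 WT held 7.76 to 22.8 CPM with a median of 13.6. Null replicates 2 and 3 lay below every WT library, and null replicate 1 lay just above the lowest, WT replicate 3. The log2 difference was -1.16 (SE 0.29, edgeR adjusted p = 0.0505, 2.24-fold lower). It passed in DESeq2 (-1.18, adjusted p = 0.00144) and in limma voom with sample quality weights (-1.14, adjusted p = 0.0057). It also passed in edgeR without WT replicate 3, whose epiblast marker sum was that of E6.5 WT (-1.24, adjusted p = 0.00331). In edgeR without null replicate 2, and with libraries paired by replicate number, no gene passed, *Stat5b* included. The exact permutation p was 0.0182.

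The earlier stages did not share that sign for *Stat5b*. At E5.5 the null epiblasts held 14.7, 43.2, 54.8 and 42.3 CPM and the WT 24.7 and 29.1 CPM, with 3 null libraries above and 1 below both WT. The low one was null replicate 1, the library nearly without *Pou5f1*. Without it the difference of mean log2(CPM + 0.5) was 0.78 for *Stat5b* instead of 0.38, 0.51 for *Stat5a* instead of 0.63 and -1.19 for *Stat3* instead of -1.44. At E6.5 the null ranged from 5.43 through 12.6 to 24.9 CPM and the WT from 5.32 through 8.61 to 21.95 CPM, overlapping almost fully. The log2 differences were 0.52 (95% confidence interval -0.62 to 1.67) and 0.41 (-0.33 to 1.14), neither of which passed. At E6.5 the visceral endoderm marker sum had a median of 851 CPM in null and 168 CPM in WT. The median log2 difference was 1.17 for those markers and 3.21 for the extraembryonic ectoderm markers, with 0 passing in either list. Their part in the E6.5 values was not tested. For *Stat5b* the E7.5 against E6.5 difference between genotype effects was -1.58 (SE 0.55, adjusted p = 0.165). It passed in limma voom (-1.63, adjusted p = 0.0145) and after leaving out the E6.5 libraries over 40000000 counts (-1.89, adjusted p = 0.0367), an alternative chosen after seeing the data.

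Cell type markers differed between the E7.5 groups beside *Stat5b*. The summed level of the visceral endoderm markers was 61.0 to 313 CPM in null and 429 to 4233 CPM in WT, groups that did not overlap, and 4 of the 14 markers passed, all lower in null (*Sox17*, *Rhox5*, *Afp* and *Spink1*). The E6.5 WT library with the lowest marker sum of all epiblast libraries, 59.5 CPM, also held the lowest *Stat5b* level, 5.32 CPM. E5.5 null replicate 3, with the highest marker sum of 11490 CPM, held the highest, 54.8 CPM. Other libraries departed from that order, such as E6.5 WT replicate 2, with a sum of 369.5 CPM and *Stat5b* at 21.95 CPM, and E6.5 null replicate 5, with 650 CPM and 5.43 CPM. The median log2 difference of null against WT at E7.5 was 1.28 for the epiblast, -1.42 for the mesoderm and -1.50 for the extraembryonic ectoderm markers, of which 0 passed. The last 2 lists share *Hand1*, and *Elf5* of the last list had a median of 0 CPM in both genotypes at E7.5. The -1.50 is therefore not specific to extraembryonic ectoderm. In bulk tissue fewer cells of a type and less RNA per cell cannot be told apart, and the part of these markers in the *Stat5b* result was not tested. E6.5 WT held *Stat5b* at a median of 8.61 CPM (5.32 to 21.95), and the part of delayed stage was not tested either. In EpiSCs, where the same markers summed to only 4.82 to 11.8 CPM, *Stat5b* stood at 22.6 and 25.3 CPM in null and 30.5 and 24.3 CPM in WT lines (log2 -0.19, 95% confidence interval -0.52 to 0.13).

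**Figure D2:**
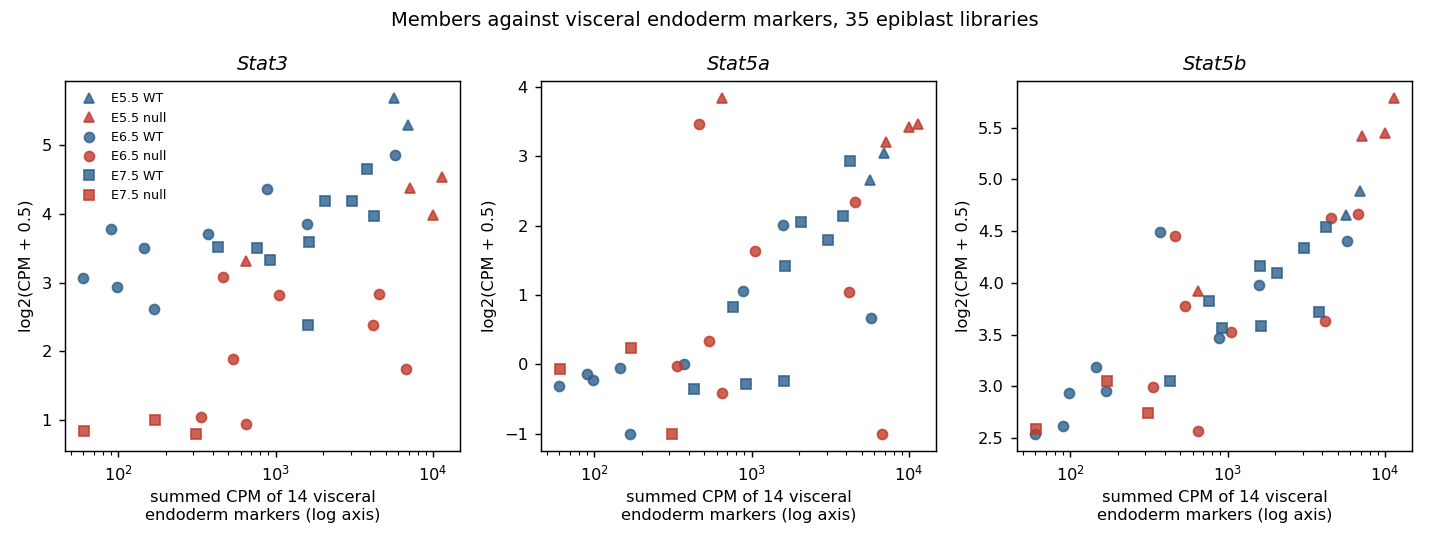
Levels of *Stat3*, *Stat5a* and *Stat5b* as log2(CPM + 0.5) against the summed CPM of 14 visceral endoderm markers (log axis) in the 35 epiblast libraries, by stage (triangle E5.5, circle E6.5, square E7.5) and genotype (WT blue, null red). The lowest *Stat5b* level (5.32 CPM) is at a marker sum of 59.5 CPM and the highest (54.8 CPM) at 11490 CPM, with scatter between, and the 3 E7.5 null libraries (marker sums 61.0 to 313 CPM) hold the lowest *Stat3* levels of their stage.

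*Stat5a*, the paralogue of *Stat5b*, was far scarcer and more scattered. At E5.5 it stood at 13.8, 10.2, 10.5 and 8.73 CPM in the null and 5.79 and 7.76 CPM in the WT epiblasts, so that all 4 null libraries exceeded both WT. The highest was null replicate 1, the library with 1293 CPM of extraembryonic ectoderm markers, and the median log2 difference of those 11 markers at E5.5 was 1.26, with 0 passing. Their part in the *Stat5a* difference was not tested. The log2 difference was 0.67 (SE 0.37, adjusted p = 0.999) and the exact permutation p was 0.133, the smallest possible with 4 against 2. At E6.5 it ran from 0 through a median of 1.16 to 10.5 CPM in null and from 0 through 0.466 to 3.52 CPM in WT. The highest null value belonged to replicate 1, the library rich in extraembryonic ectoderm markers, and without it the difference of mean log2(CPM + 0.5) was 0.34 instead of 0.70. The part of extraembryonic markers in the E6.5 difference was not tested.

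At E7.5 the null counts of *Stat5a* were 27, 17 and 0 reads (0.676, 0.458 and 0 CPM) and the WT counts ran from 9 to 189 reads (0.285 through 2.17 to 7.13 CPM). WT replicates 1, 3 and 9 lay within the null range and the other 6 lay above it. The edgeR log2 difference of -2.65 had an SE of 1.20 (adjusted p = 0.234). In EpiSCs the null lines were slightly below the WT lines, 4.98 and 4.81 against 6.47 and 5.91 CPM, without overlap and without passing (log2 -0.34, SE 0.18). No library group thus held a *Stat5a* change that passed, and the estimate was higher in null at E5.5 and E6.5 and lower at E7.5 and in EpiSCs.

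*Stat6* was the steadiest member. Its group means lay between 14.2 and 20.4 CPM in the 6 epiblast groups. At E6.5 it stood at 9.78 through 13.97 to 20.6 CPM in null and at 9.998 through 14.5 to 19.9 CPM in WT, ranges that coincided (log2 0.01, 95% confidence interval -0.38 to 0.40). At E7.5 the null epiblasts held 15.7, 13.4 and 13.5 CPM, inside the WT span of 11.3 to 25.4 CPM (log2 -0.28, SE 0.22). The common effect over the 3 stages was -0.05 with a 95% confidence interval from -0.34 to 0.23. In terms of fold this interval runs from 0.792 to 1.17, the narrowest of the 6.

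EpiSCs gave the one comparison in which *Stat6* was higher in every null sample, 11.6 and 11.3 CPM against 9.90 and 8.23 CPM in WT. The log2 difference was 0.34 (SE 0.15, 1.26-fold, 95% confidence interval -0.03 to 0.71) and did not pass, and the exact permutation p was 0.333, the smallest possible with 2 against 2.

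*Stat2*, the interferon-pathway member, passed at no stage. At E5.5 it stood at 11.01, 8.90, 10.4 and 4.43 CPM in null and 9.53 and 10.4 CPM in WT. At E6.5 the null spread was the widest of any group, from 0 reads in replicate 2 and 27 reads in replicate 3 to 1052 reads in replicate 1, or 0 through 5.14 to 14 CPM, while the WT stayed between 2.78 and 8.15 CPM. Those 3 are the deeper libraries with fewer genes detected, and among the 5 shallower null libraries *Stat2* ran from 2.53 to 7.19 CPM. The log2 differences were -0.21 at E5.5, 0.13 at E6.5, -0.11 at E7.5 and 0.05 in EpiSCs. The common effect was -0.00497 with a 95% confidence interval of -0.77 to 0.76.

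*Stat4* was low and often unread. It had 0 reads in 2 of 4 null and 1 of 2 WT epiblasts at E5.5, in 3 of 8 null and 1 of 9 WT at E6.5 and in 1 of 9 WT at E7.5. The E6.5 zeros were null replicates 1, 2 and 3 and WT replicate 1, all deeper libraries with fewer genes detected. The shallower E6.5 null libraries held 16 to 157 reads, and the deeper WT replicates 2 and 3 held 172 and 207 reads. At E7.5 the null counts were 89, 71 and 54 reads and the WT counts ran from 0 to 107 reads with a median of 80. No fold can be read at E5.5, where 110 reads in null replicate 3 made nearly the whole of the fitted value. At E6.5 and E7.5 the log2 differences were -0.50 (SE 1.14) and -0.26 (SE 0.81), with 95% confidence intervals of -2.89 to 1.88 and -1.99 to 1.46.

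**Figure D3:**
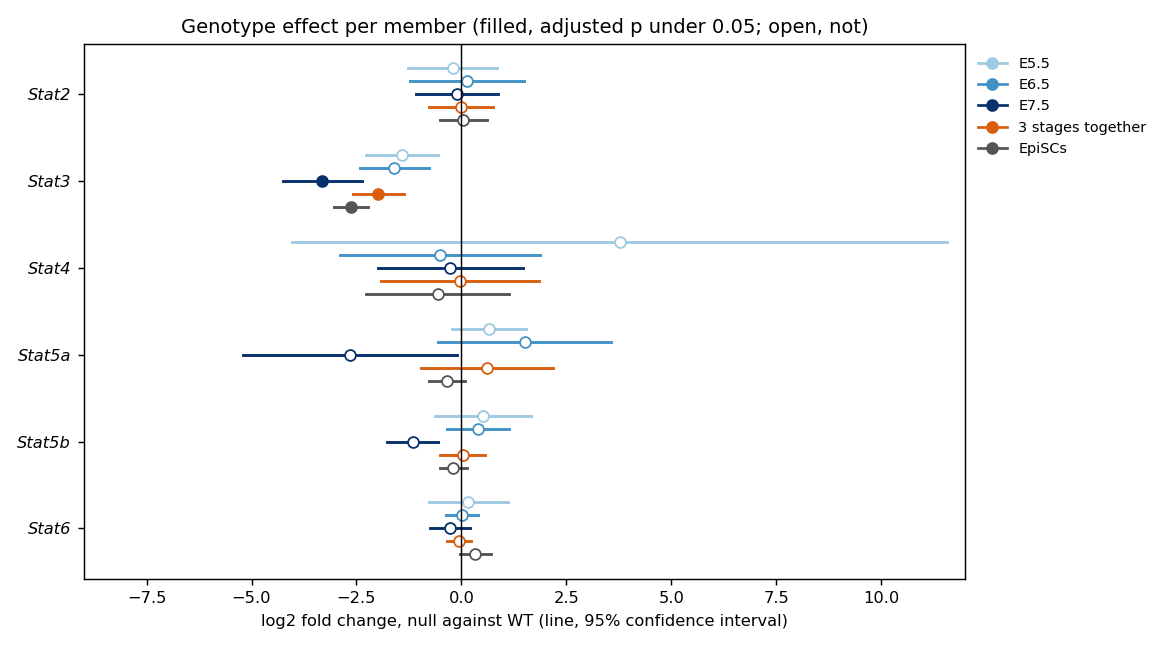
Log2 fold change of null against WT on the horizontal axis with its 95% confidence interval for each member in the 5 genotype comparisons, filled where the adjusted p was under 0.05. *Stat3* is filled at E7.5 (-3.31), in the 3 stages together (-1.98) and in EpiSCs (-2.62), and the intervals of the other members in the common fit include 0.

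Read as a family, the common fit gave no member other than *Stat3* an interval that excluded 0. The upper bounds of those intervals, as folds of null over WT, were 1.17 for *Stat6*, 1.49 for *Stat5b*, 1.69 for *Stat2*, 3.63 for *Stat4* and 4.53 for *Stat5a*. Rises larger than these are outside the 95% intervals of an effect shared by the stages. The *Stat5a* and *Stat4* bounds are wide, and effects of opposite sign at different stages cannot be seen in a common term. The *Stat5b* and *Stat5a* estimates did differ in sign between stages, so their common bounds do not limit a rise at a single stage. At single stages the upper bound reached 3.18-fold for *Stat5b* (E5.5) and 11.9-fold for *Stat5a* (E6.5).

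Levels of different genes were compared per kb of exon, because transcript lengths differ. The length is that of all exons of a gene, and the order depends on it. Per kb of the longest transcript *Stat3* led in E5.5 WT, at 7.42 before *Stat5b* at 5.16 and *Stat6* at 4.79. In E6.5 WT it then stood just above *Stat5b*, at 2.203 against 2.18. The values below are per kb of all exons. At E5.5 the WT epiblasts held *Stat5b* at 4.85, *Stat3* at 4.71 and *Stat6* at 4.10 CPM per kb, neighbours that differed by less than their SD, followed by *Stat2* at 1.68, *Stat5a* at 0.950 and *Stat4* at 0.0178, steps that each exceeded the larger SD. In E6.5 WT *Stat6* led with 3.30 CPM per kb and exceeded *Stat5b* (2.05) in 9 of 9 libraries, and the steps from *Stat5b* to *Stat3* (1.40) and from *Stat3* to *Stat2* (0.801) did not exceed the larger SD, while those on to *Stat4* (0.476) and *Stat5a* (0.128) did. In E7.5 WT the order was *Stat6* (3.98), *Stat5b* (2.68), *Stat3* (1.43), *Stat2* (1.10), *Stat4* (0.574) and *Stat5a* (0.343). In WT EpiSCs *Stat5b* was far ahead with 4.95 CPM per kb, *Stat3* (2.16), *Stat6* (2.06) and *Stat2* (1.996) were alike within their spread, and *Stat5a* (0.867) and *Stat4* (0.252) followed.

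In null samples *Stat3* stood at rank 3 of 6 at E5.5 (1.78 CPM per kb), rank 4 at E6.5 (0.458 CPM per kb), rank 5 at E7.5 (0.141) and rank 5 in EpiSCs (0.349). In E5.5 WT it stood at rank 2, and led per kb of the longest transcript. The E6.5 step from *Stat2* to *Stat3* held in 5 of 8 libraries and did not exceed the larger SD. The *Stat3* share of the summed per-length level of the 6 was 14.04% ± 4.76 (SD, n = 9) in E7.5 WT and 2.34% ± 0.263 (SD, n = 3) in E7.5 null, and 17.75% ± 4.38 against 3.43% ± 0.0826 (SD, n = 2 each) in EpiSCs. By the longest transcript these shares were 17.7% and 3.09% at E7.5, and 21.9% and 4.44% in EpiSCs. Per kb of all exons, the sum of the other 5 members was 14.9 ± 4.02 CPM per kb in null against 11.6 ± 1.46 in WT at E5.5, and 7.57 ± 2.54 against 6.76 ± 1.96 at E6.5. It was 5.92 ± 0.827 against 8.67 ± 1.503 at E7.5, and 9.83 ± 0.981 against 10.1 ± 1.46 in EpiSCs. These sums are descriptions without a test, and they were above WT at the earlier 2 stages and below WT at E7.5.

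**Figure D4:**
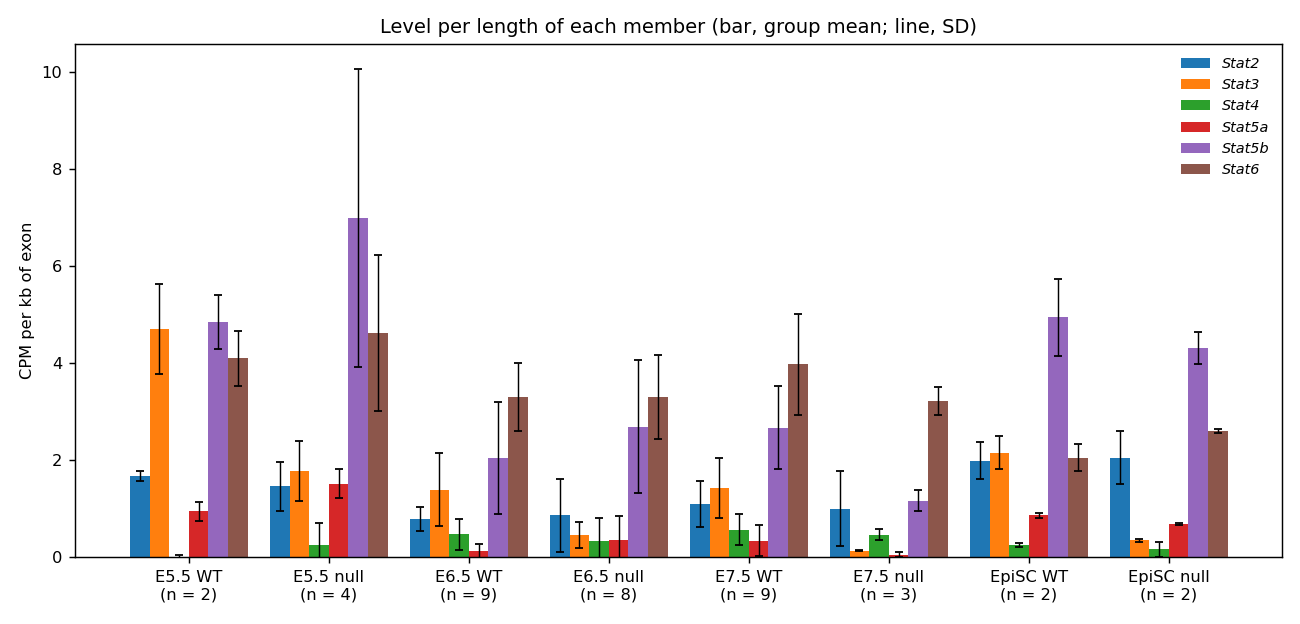
Mean CPM per kb of exon for each member (bars, with SD as lines) in the 8 groups. *Stat5b* and *Stat6* are the tallest bars in the null groups, and *Stat3* falls from 4.71 in E5.5 WT to 1.40 in E6.5 WT and 0.458 in E6.5 null.

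The family was also read along the WT time course. Between E5.5 and E6.5 *Stat3* fell 3.33-fold (log2 -1.74, SE 0.42, adjusted p = 0.0198), from 51.1 and 38.6 CPM to at most 28.6 CPM, without overlap. It was the single member of 6 that passed, where 1919 of 20763 genes passed (9.24%). *Stat5b* stood 2.35-fold lower (log2 -1.23, adjusted p = 0.108), *Stat5a* 7.34-fold lower (-2.88, adjusted p = 0.097) and *Stat2* 2.07-fold lower (-1.05, adjusted p = 0.0843), each also without overlap between the groups, and *Stat6* differed by -0.30. *Stat4* went the other way, from 0 and 4 reads to a median of 56 reads, and the difference did not pass (adjusted p = 0.169). Its fitted log2 value ran from 3.68 to 9.27 on leaving out 1 library, so no fold is read from it.

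The number of members passing in this step depended on the libraries. It was 3 in DESeq2, 4 in limma voom, and 5 (all but *Stat6*) when the 3 E6.5 WT libraries over 40000000 counts were left out, an alternative chosen after seeing the data. It was 0 without either of the 2 E5.5 WT libraries, *Stat3* then having adjusted p = 0.261 and 0.0523. Visceral endoderm markers stood lower over the same step, from 5692 and 6913 CPM to a median of 168 CPM (range 59.5 to 5769), and 0 of 14 passed. Extraembryonic ectoderm markers went from 75.5 and 530 CPM to a median of 12.9 CPM, with 3 of 11 passing lower. The part of these cell types in the lower STAT levels was not tested.

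The same step was read in the null epiblasts. *Stat3* fell 3.90-fold (log2 -1.96, SE 0.48, adjusted p = 0.037), from 9.47 to 22.6 CPM down to 1.42 to 7.99 CPM without overlap, again the single member passing, where 692 of 18352 genes passed (3.77%). *Stat5b* stood 2.62-fold lower (log2 -1.39, adjusted p = 0.0784) and passed in DESeq2, in limma voom, in the fit of all 35 libraries and without E5.5 null replicate 1. The *Stat3* call was lost, with adjusted p between 0.0531 and 0.111, when any 1 of 7 libraries was left out (E5.5 null replicates 2, 3 and 4 and E6.5 null replicates 5, 6, 7 and 8). Over this step the median summed level went from 8539 to 851 CPM for visceral endoderm and from 450 to 41.6 CPM for extraembryonic ectoderm markers, with 0 passing in either list, and their part in these values was not tested.

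From E6.5 to E7.5 no WT member passed, although 4286 of 17191 genes passed (24.9%). *Stat3* stayed level at a median of 12.5 and then 11.5 CPM (log2 0.02, 95% confidence interval -0.61 to 0.65). *Stat5a* stood higher (log2 1.40, adjusted p = 0.194), as did *Stat2* (0.44), *Stat5b* (0.37), *Stat6* (0.25) and *Stat4* (0.25). Limma voom passed *Stat5a*, *Stat5b* and *Stat6*, and with the 3 deeper E6.5 WT libraries left out *Stat5b* passed in edgeR (log2 0.96, adjusted p = 0.003). In the deeper E6.5 WT libraries *Stat5b* stood at 15.2, 21.95 and 20.7 CPM and in the 6 others at 5.32 to 10.5 CPM, which do not overlap.

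Over the same interval the null members gave estimates of either sign. *Stat3* stood 3.28-fold lower (log2 -1.71, SE 0.71), *Stat5b* 2.33-fold lower (-1.22, SE 0.47) and *Stat5a* 6.90-fold lower (-2.79, SE 1.79), *Stat6* differed by -0.05, and *Stat4* (0.47) and *Stat2* (0.19) stood higher. None passed, where 29 of 19460 genes did (0.149%). In the test of the difference between genotypes over this interval 70 of 24126 genes passed (0.290%) and 0 of the 6 members. The members with the largest terms were *Stat5a* (-4.18, SE 1.65, adjusted p = 0.233), *Stat3* and *Stat5b*.

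**Figure D5:**
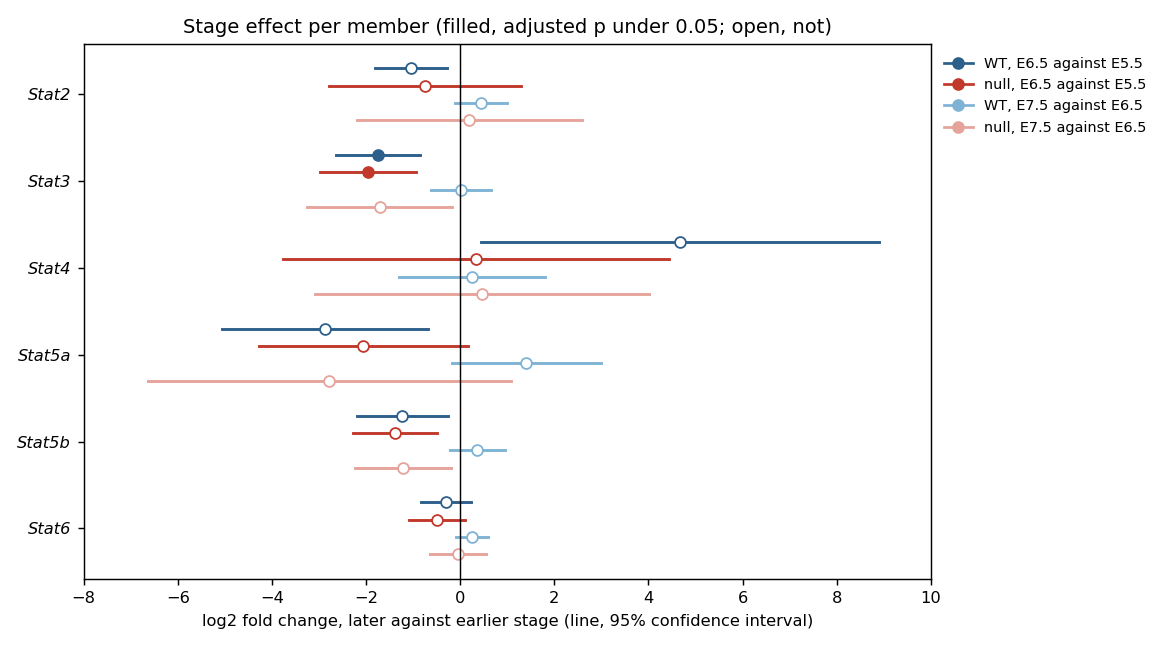
Log2 fold change of the later against the earlier stage on the horizontal axis with its 95% confidence interval for each member, in WT (blue) and null (red) epiblasts, dark for E6.5 against E5.5 and pale for E7.5 against E6.5. *Stat3* is filled, meaning an adjusted p under 0.05, in both E6.5 against E5.5 comparisons (-1.74 and -1.96), and from E6.5 to E7.5 the *Stat5a* and *Stat5b* estimates are above 0 in WT and below 0 in null.

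The other genes of the pathway were counted from 6 fixed lists, of ligands, receptors, kinases, nuclear partners, inhibitors and response genes, 84 entries in all. At E5.5 and E6.5 0 of 69 and 0 of 65 entries tested passed between genotypes. At E7.5 2 of 70 passed, where 2.11% of all genes did, and in EpiSCs 1 of 74, where 0.130% did. The median log2 difference of the entries tested was -0.10 at E7.5 and -0.11 in EpiSCs, beside -0.02 and -0.01 over all genes. Among ligands and receptors none passed between genotypes at any stage or in EpiSCs. *Il6st*, the shared gp130 receptor chain, stood at 33.4, 35.2 and 47.6 CPM in E7.5 null and at a median of 72.6 CPM in WT (33.3 to 93.8), a log2 difference of -0.77 (adjusted p = 0.12). *Lifr*, which pairs with gp130 to bind LIF, differed by -0.12 at E7.5 and by -0.48 in EpiSCs.

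Among the kinases *Jak2* passed at E7.5. The null epiblasts held 3.08 to 3.20 CPM (n = 3) and the WT 4.14 to 17.0 CPM with a median of 9.88, without overlap, and the log2 difference was -1.70 (SE 0.34, adjusted p = 0.0324). *Jak1*, the main kinase of gp130 receptors, differed by -0.47 (adjusted p = 0.156). The *Jak2* levels stood the other way at E6.5, where no gene passed in edgeR, and the null held 2.43 through 10.1 to 29.9 CPM and the WT 1.49 through 3.14 to 5.68 CPM. The term for the difference between the E7.5 and E6.5 genotype effects passed (-3.72, SE 0.70, adjusted p = 0.0226). The E7.5 null values lay beside the E6.5 WT median of 3.14 CPM. The parts of delayed stage and of the marker levels at E6.5 were not tested.

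Among the inhibitors *Socs2*, which restrains growth hormone signalling through STAT5B, passed at E7.5. It was higher in null, at 62.9 to 73.6 CPM against 18.5 through 22.9 to 62.9 CPM in WT (log2 1.38, SE 0.30, adjusted p = 0.0405), and the term against E6.5 also passed (1.88, adjusted p = 0.0417). In WT *Socs2* fell by 1.30 on the log2 scale from E6.5 to E7.5, and the part of delayed stage was not tested. These calls of *Jak2* and *Socs2* were lost at E7.5 without null replicate 2 and with the replicate block, and in the term against E6.5 without E7.5 null replicate 1, since 0 genes passed in each of those fits. *Socs3*, the classical STAT3-induced inhibitor, was lower in null by 0.99 on the log2 scale at E7.5 (adjusted p = 0.124), by 1.65 at E5.5 (adjusted p = 0.999), by 0.24 at E6.5 and by 0.49 in EpiSCs, none of which passed. *Irf9*, the partner of STAT2, differed by 0.12 at E7.5 and -0.22 in EpiSCs. The one response gene that passed was *Irf1* in EpiSCs, an interferon-inducible transcription factor, at 30.1 and 33.9 CPM in null and 68.3 and 79.3 CPM in WT (log2 -1.20, SE 0.11, adjusted p = 0.0197).

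The pathway was also counted along the WT time course. From E5.5 to E6.5 3 of 73 entries passed higher and 5 lower, where 9.24% of all genes passed. The kinases *Jak1* (log2 -1.17) and *Jak2* (-2.61) fell, *Lifr* (0.80) and *Socs2* (1.75) rose, and among response genes *Ccnd1* (1.70), a driver of the cell cycle, rose while *Bcl3* (-7.17), *Gata3* (-4.83) and *Junb* (-1.91) fell. From E6.5 to E7.5 14 of 66 passed higher and 7 lower, where 24.9% of all genes passed, and nothing particular to the pathway is read from either count. The receptors *Il6st* (1.41), *Ifnar1* (0.47), *Cntfr* (1.33) and *Ifnar2* (0.98) and the kinases *Jak2* (1.69) and *Jak1* (0.57) rose, *Socs2* fell by 1.30, and among response genes *Gbx2* (7.51) and *Gata3* (3.93) rose and *Irf1* (-2.72) and *Myc* (-1.51) fell. In edgeR no STAT member passed over this interval, whereas limma voom passed *Stat5a*, *Stat5b* and *Stat6*. Whether the receptor and kinase changes differ from those of the members was not tested.

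*Stat3* neighbours were counted because the allele carries a resistance cassette. Of 24 other genes within 250 kb of either end of *Stat3*, 14 were tested at E5.5 and at E7.5, 13 at E6.5 and 16 in EpiSCs, and 0 passed between genotypes in any of them. Of all genes 0% passed at E5.5 and E6.5, 2.11% at E7.5 and 0.130% in EpiSCs. With so few neighbours tested, a count of 0 is near those shares, and nothing particular to the neighbours is read from it. Their median log2 differences were 0.02, 0.01, -0.08 and 0.03 in the order E5.5, E6.5, E7.5 and EpiSCs. *Stat5a* and *Stat5b* lie in the same window.

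Genes with the pattern most like each member over the 35 epiblast libraries were found by Pearson's r of log2(CPM + 0.5) among 24126 genes. These values are descriptions, without a test, and stage, depth and tissue admixture are shared by all genes of a library. *Stat5b* was most like *Pvr* (r = 0.912), *Cited1* (0.892) and *Gaa* (0.889). *Stat5a* was most like *Degs1* (0.859), *Tmem259* (0.821) and *Llgl2* (0.819), and *Stat2* most like *Gnptg* (0.792), *Ccdc97* (0.780) and *Endog* (0.764). The closest genes of *Stat3* (*Scpep1*, *Tfpi* and *Icam1*, 0.694 to 0.705), *Stat4* (*C1qtnf6*, *Ints9* and *BC106179*, 0.681 to 0.699) and *Stat6* (*Erlin2*, *Phka1* and *Scp2*, 0.630 to 0.637) were less like them.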

How the data were processed

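The authors trimmed reads with Trim Galore, aligned them to GRCm38 with HISAT2 and assigned them with StringTie, and deposited whole-number read counts per gene in 1 table of 35 epiblast libraries and 1 of 4 EpiSC libraries. Epiblast libraries had been made with a stranded total RNA kit for picogram inputs. The annotation version and strand setting are not given in the sources used here. Counts were analysed as deposited with edgeR 4.0.16 in R 4.3.3, with TMM scaling, filterByExpr (minimum count 10, minimum total 15), robust quasi-likelihood fits with p-values adjusted by Benjamini and Hochberg's method over every gene tested, and only the libraries of each comparison entered its fit. SE is the log2 fold change divided by the root of F. DESeq2 1.42.0 and limma 3.58.1 voom were alternatives. Single members were also compared by exact permutation (scipy 1.17.1) of log2(CPM + 0.5), 48 tests, unadjusted. Each epiblast is a separate embryo and each EpiSC library a separate line.

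The named genes were the 6 members, the entries of 6 pathway lists and of 5 marker lists that passed or are standard for gp130 signalling, genes within 250 kb of *Stat3* and the 3 genes most like each member. Members and lists were chosen with earlier results of these data known. On simulated counts with 200 changed genes, the share recovered was 14.5% at E5.5, 55% at E6.5, 46.5% at E7.5 and 66.5% in EpiSCs for the genotype comparisons. The planted changes were all larger than the *Stat5a*, *Stat5b* and *Stat6* differences at E5.5 and in EpiSCs. The share recovered for changes of that smaller size was not measured. Replicate numbers shared between groups did not pair the libraries. Gene positions came from GENCODE on GRCm38 and promoters from RefSeq. Intervals come from the fits and include the spread between libraries, whereas the floor of 3 counts covers counting error only.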

Additional observations from a re-analysis of the deposited data

Results flagged for a closer look

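*Stat4* in E7.5 WT replicate 5 was at 0 CPM, apart from the 8 other WT epiblasts of that stage, of which the nearest held 1.23 CPM. On the scale of log2(CPM + 0.5) the gap was 0.574 of the group's range against a critical value of 0.493. Chance gives such a gap in about 1 in 20 groups, of which 24 were examined.

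The genotype difference of *Jak2* between E7.5 and E6.5 differed by -3.72 on the log2 scale (SE 0.70, edgeR adjusted p = 0.0226). That of *Socs2* differed by 1.88 (SE 0.42, edgeR adjusted p = 0.0417). Without E7.5 null replicate 1 no gene passed in this term (0 genes), so both calls were lost. Visceral endoderm marker sums also differed between genotypes at E7.5, with 61.0 to 313 CPM in null and 429 to 4233 CPM in WT. At E6.5 their medians were 851 CPM in null and 168 CPM in WT, with overlapping ranges. The part of these markers in the results was not tested. Genotype and developmental stage cannot be told apart in these terms either.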

How the results depend on the processing

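Over the alternatives, fold changes of the members, apart from *Stat3* between genotypes, kept direction and side of the threshold in 1247 cases, gained a call in 32, lost it in 9 and changed sign in 89. The cause of the changes below was not tested. Genes passing between genotypes numbered 33 (DESeq2) and 5 (all 35 libraries in 1 fit) at E5.5; at E6.5 77 (DESeq2), 170 (voom) and 31 (libraries under 40000000 counts). At E7.5 they numbered 231 with a fold limit, 1943 in DESeq2, 3504 in voom, 21 with all 35 and 0 with the replicate block, and in EpiSCs 510 in DESeq2 and 148 without the filter. For E6.5 against E5.5 in WT the counts were 1070 (fold limit), 3169 (DESeq2), 3437 (voom) and 5095 (E6.5 libraries over 40000000 counts left out, chosen after seeing the data), and for E7.5 against E6.5 in WT 1518 (fold limit) and 7107 (voom). In null they were 363, 1975, 3541, 2801 (all 35) and 2428 (deeper libraries out) for the earlier step and 426, 939, 132 and 341 (DESeq2, voom, all 35, deeper out) for the later. The interaction gave 650 (DESeq2), 45 (no filter), 2731 (voom) and 553 (deeper out), and the common effect 117, 16, 4 and, without 3 libraries that stand apart, 25.

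Members passing numbered 1 at E6.5 in DESeq2 (*Stat3*, -1.59, adjusted p = 0.0141), 2 at E7.5 in DESeq2 and in voom and 0 with the replicate block, where *Stat3* was -2.61 (adjusted p = 0.896). Same-numbered libraries did not deviate together (r from -0.263 to 0.224), so the replicate block pairs libraries by number only, and no paired analysis was possible in EpiSCs because the lines share no number. In WT E6.5 against E5.5 3, 4 and 5 members passed (DESeq2, voom, deeper out), in WT E7.5 against E6.5 3 (voom) and 1 (deeper out), in null E6.5 against E5.5 2, 3, 2 and 3 (DESeq2, voom, all 35, deeper out), and in the interaction 2 (voom) and 1 (deeper out).

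Leaving out 1 library at a time gave 0 to 2 genes passing at E6.5, 0 (without null replicate 2) to 2802 (without WT replicate 3) at E7.5, 26 to 269 in EpiSCs, 116 to 3518 and 224 to 1267 for E6.5 against E5.5 in WT and null, 0 to 52 for the later step in null, 0 to 504 for the interaction and 1 to 14 for the common effect. Members passing ran from 0 to 2 at E7.5, 0 to 4 in WT and 0 to 2 in null for E6.5 against E5.5. *Stat3* at E7.5 ran from -3.43 to -3.16.

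Sign changes, all without a call, were *Stat5b* at E5.5 (replicate block, -0.086), *Stat6* at E5.5 (voom, -0.043), *Stat2* at E6.5 (replicate block -0.57, libraries over 40000000 counts -0.045), *Stat4* at E6.5 (under 40000000 counts, 0.25), *Stat6* at E6.5 (over, -0.25), *Stat4* at E7.5 (voom 0.58, and 0.13 on the log2 scale with pseudocount 0.1) and *Stat6* at E7.5 (replicate block, 0.0995). For E7.5 against E6.5 they were *Stat4* in WT (voom, -0.19) and, in null, *Stat4* (deeper out, -0.22) and *Stat6* (voom 0.032, pseudocount 2 -0.000697). The interaction of *Stat4* was -0.54 (deeper out). Common effects were *Stat2* 0.0041 (deeper out), *Stat4* 0.075, 0.52 and 0.13 (voom, deeper out, 3 libraries out), *Stat5a* -0.052 (3 out), *Stat5b* -0.016 and -0.019 (voom, 3 out) and *Stat6* 0.00094 (deeper out). With 1 library left out *Stat2* ran from -0.34 to 0.023 at E5.5, -0.27 to 0.32 at E6.5, -0.95 to 0.25 at E7.5, -0.26 to 0.31 in EpiSCs, -0.66 to 0.60 for the later null step, -1.10 to 0.15 for the interaction and -0.22 to 0.092 in common. *Stat3* ran from -0.14 to 0.25 for the later WT step. *Stat4* ran from -0.53 to 3.33 for the earlier null step, -2.15 to 0.15 in EpiSCs and -0.51 to 0.12 in common, *Stat5a* from -0.0022 to 0.99 and *Stat5b* from -0.067 to 0.15 in common, and *Stat6* from -0.081 to 0.079 at E6.5 and -0.12 to 0.039 for the later null step.

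Per kb of the longest transcript in place of all exons, levels in CPM per kb were, for *Stat2*, 2.26 and 1.97 (E5.5 WT, null), 1.08 (E6.5 WT), 2.69 and 2.77 (EpiSC WT, null). For *Stat3* they were 7.42 and 2.80 at E5.5, 2.203 and 0.723 at E6.5, 2.26 and 0.223 at E7.5 and 3.40 and 0.550 in EpiSCs (WT, null). *Stat5b*, at 5.16 in E5.5 WT and 2.18 in E6.5 WT, thereby stood below *Stat3* in both groups, unlike per kb of all exons. *Stat4* was at 0.609 (E7.5 null) and 0.327 (EpiSC WT), *Stat5a* at 1.71 and 2.73 (E5.5) and 1.56 and 1.24 (EpiSC), and *Stat6* at 4.79 (E5.5 WT), 3.76 (E7.5 null), 2.40 and 3.03 (EpiSC). By Spearman's rho the closest gene changed for *Stat2* (0.726), *Stat3* (0.775), *Stat4* (0.647), *Stat5a* (0.831) and *Stat6* (0.658), and without E5.5 null replicate 1 for *Stat3* (0.718) and *Stat6* (0.686).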
